A study of Mus musculus with 4 samples.

Results

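The cells described here are the cells of mouse back skin that carried transcripts of Cd207, the gene of the lectin langerin, together with transcripts of MHC class II. Cells were chosen by measured values: a barcode was taken with 200 or more genes seen, no more than 10% of its UMIs (unique molecular identifiers, each standing for 1 captured transcript) from mitochondrial genes, at least 3 Cd207 UMIs, at least 20 UMIs of Cd74, H2-Aa and H2-Ab1 together per 10000 UMIs of the cell, and no UMI of Cd3d, Cd3e or Cd3g. This gave 109 cells of 22819 kept cells, out of 23455 barcodes in 4 libraries, and they are called Cd207-gated cells below. The levels of the genes in the rule chose the cells, so those levels are description and carry no test. The working name Langerhans cells was checked against markers the rule had not used, and 72 of the 109 cells carried them.

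Langerhans cells are the antigen-presenting cells of the epidermis. They sit between keratinocytes, hold on to them through adhesion proteins such as EpCAM and E-cadherin, take up antigen with lectins such as langerin, and load peptides onto MHC class II. When they are activated they leave the epidermis for the lymph node under the receptor CCR7. Langerin is not theirs alone in the mouse: a share of the cross-presenting dermal dendritic cells, the cDC1, carries it too, with the chemokine receptor XCR1 and the factor IRF8 as their own markers.

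The cells came from adult back skin of CD1 strain mice, 7 to 8 weeks old per the labels' protocols, which were sorted by FACS and captured with droplet chemistry that reads the 3′ ends of polyadenylated RNA. The series asked how control and Ovol1 null skin differ with and without imiquimod, a drug that engages Toll-like receptor TLR7 and is used to inflame mouse skin; the product of Ovol1 is a DNA-binding repressor in epithelial cells. The 4 groups of 1 library each were Ovol1_null_IMQ (Ovol1 null, 1 dose of 62.5 mg of 5% imiquimod cream on the shaved back), Ovol1_null_Untreated (Ovol1 null, no cream), Control_IMQ (control genotype, the same dose) and Control_Untreated (control genotype, no cream). How the null allele was made, the control genotype, the time between cream and harvest, the number of mice in a library and the sort gate are not given in the sources used here. Each group had 1 library, so groups could not be tested against each other, and each difference between groups is one between single libraries, and the 95% intervals beside values cover counting error only.

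The libraries kept 5671 cells (Ovol1_null_IMQ), 5292 (Ovol1_null_Untreated), 5670 (Control_IMQ) and 6186 (Control_Untreated), with 30495767 to 56973042 UMIs. Median UMIs per kept cell ranged from 4805 to 8451. Ovol1, the gene the genotype labels name, was not lower in the libraries labelled null. In cells with at least 100 UMIs of Krt5 and Krt14 per 10000 and little collagen, it stood at 0.638 UMIs per 10000 (1099 UMIs in 1033 cells) in Ovol1_null_IMQ, 0.190 (16 UMIs in 158 cells) in Ovol1_null_Untreated, 0.323 (214 UMIs in 1048 cells) in Control_IMQ and 0.0706 (12 UMIs in 289 cells) in Control_Untreated. The sources used here do not say whether the captured 3′ ends lie within the deleted part, so this count does not check the allele, and libraries are named as labelled throughout. Of the barcode sequences of kept cells, 243 occurred in more than 1 library; 6 gated cells had such a barcode, and no barcode was shared between gated cells of different libraries.

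The gated cells were most frequent in the library labelled Ovol1_null_IMQ, with 58 of 5671 kept cells (1.02%, exact Clopper-Pearson interval 0.778 to 1.32). There were 16 in the library labelled Ovol1_null_Untreated (0.302%, 0.173 to 0.491), 8 in Control_IMQ (0.141%, 0.0609 to 0.278) and 27 in Control_Untreated (0.436%, 0.288 to 0.634). The interval of Ovol1_null_IMQ lay above those of the other 3 libraries, and that of Control_IMQ lay just under that of Control_Untreated. As a share of all kept cells that met the class II condition, they were 24.7%, 12.7%, 5.33% and 11.1% in the same order of libraries. Sorting, capture and dissociation also set these shares, which are not shares of the tissue. Median UMIs per gated cell were 9048.5, 9075.5, 6486 and 9882 in that order, and 3 cells of Ovol1_null_IMQ and 1 of Control_IMQ held over 25000 UMIs, the largest 120532. A doublet caller, Scrublet, marked 2 of the 58, 0 of the 16, 0 of the 8 and 1 of the 27 gated cells.

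At the edge of the rule the cells were few. Among cells that met the class II and Cd3 conditions, 13 had exactly 2 Cd207 UMIs and stayed out, while 5 had exactly 3 and came in. No cell failed on class II alone, and the lowest class II levels inside the gate were 21.2, 46.4 and 85.4 UMIs per 10000, against a limit of 20. A Cd3 UMI kept out 20 cells, 13 of them from Ovol1_null_IMQ, 4 from Ovol1_null_Untreated and 3 from Control_Untreated. Of those 20, 11 had exactly 1 Cd3 UMI and 15 carried the epidermal markers described next.

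Mfge8, which encodes a secreted phosphatidylserine-binding bridging protein, Ltc4s, the leukotriene C4 synthase, and Epcam, an epithelial adhesion protein, mark Langerhans cells and played no part in the rule. Their summed UMIs split the gated cells: 37 cells had 0 to 4 UMIs of the 3 genes, no cell had 5, and 72 cells had 6 or more. The line at 5 UMIs was set after these sums were seen, and cells above it are called marker-positive. They made up 55 of 58 cells (94.8%, 85.6 to 98.9) in Ovol1_null_IMQ, 7 of 16 (43.8%, 19.8 to 70.1) in Ovol1_null_Untreated, 4 of 8 (50%, 15.7 to 84.3) in Control_IMQ and 6 of 27 (22.2%, 8.62 to 42.3) in Control_Untreated. As shares of all kept cells these were 0.970% in Ovol1_null_IMQ, 0.132% in Ovol1_null_Untreated, 0.0705% in Control_IMQ and 0.0970% in Control_Untreated. With each cell thinned to 1400 UMIs, a UMI of any of the 3 genes remained in 89.7%, 43.8%, 62.5% and 22.2% of gated cells, against 96.6%, 75%, 87.5% and 51.9% before thinning.

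The other 37 cells largely carried transcripts of cDC1, the dermal dendritic cells that cross-present antigen. At least 5 UMIs of Xcr1, Clec9a, Wdfy4 and Naaa together were found in 2 of the 3 marker-negative cells of Ovol1_null_IMQ, 9 of 9 in Ovol1_null_Untreated, 3 of 4 in Control_IMQ and 18 of 21 in Control_Untreated. Among marker-positive cells this held for 4 of 55 in Ovol1_null_IMQ and for 0 of 7, 0 of 4 and 0 of 6 in the other libraries. Xcr1 stood at 0.140, 1.24, 2.12 and 1.63 UMIs per 10000 in all gated cells of Ovol1_null_IMQ, Ovol1_null_Untreated, Control_IMQ and Control_Untreated, and 1 Xcr1 UMI in all came from marker-positive cells. By these markers the name Langerhans cells holds for the marker-positive cells as a group, not for each cell, and the make-up of the gate moved with the library. The 8 markers of type 2 dendritic cells and monocytes reached 44.4 UMIs per 10000 in 1 marker-positive cell of Ovol1_null_Untreated, against a median of 2.99. In marker-positive cells of Ovol1_null_IMQ, 10 macrophage markers reached 85.9 in 1 cell (median 6.74), and 10 keratinocyte markers 472 (median 12.4). Most lists compared between libraries are given below both for all gated cells and for the marker-positive ones; values of single genes are for all gated cells unless marker-positive cells are named.

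**Figure D1:**
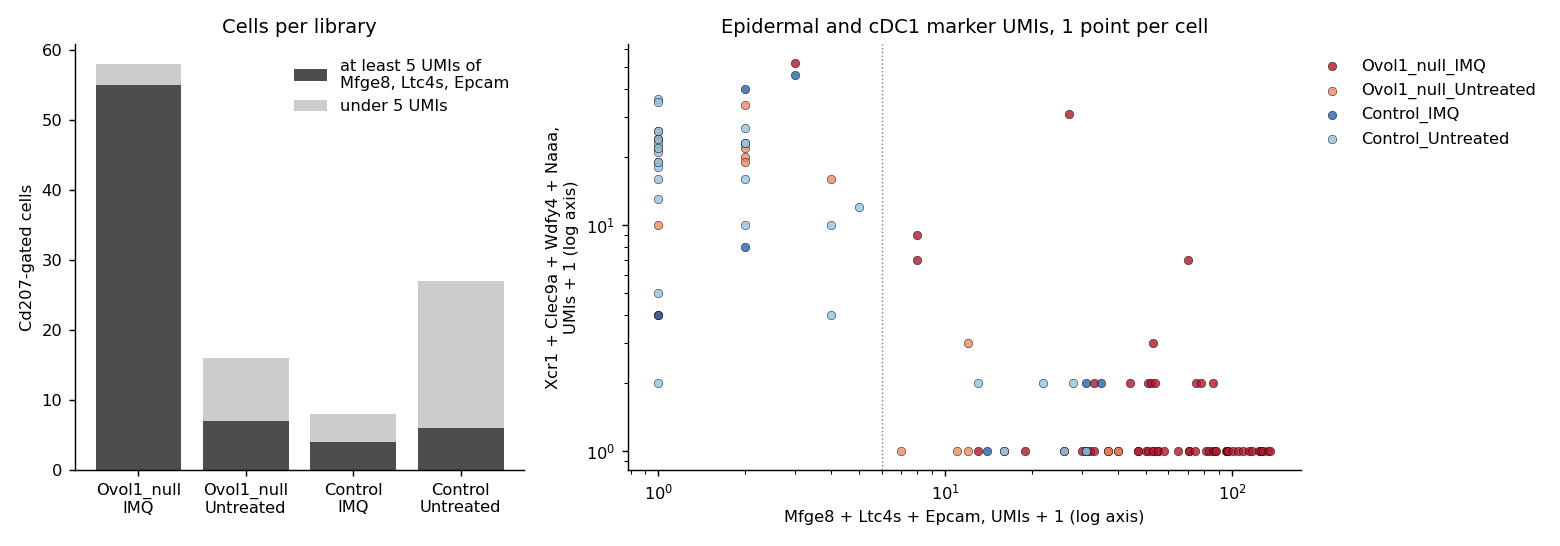
Left, number of Cd207-gated cells per library as stacked bars, dark for cells with at least 5 UMIs of Mfge8, Ltc4s and Epcam together and light for the rest; right, each cell by its summed UMIs of those genes plus 1 (horizontal, log axis) and of Xcr1, Clec9a, Wdfy4 and Naaa plus 1 (vertical, log axis), coloured by library, with a dotted line at the split. Of the 58 cells of Ovol1_null_IMQ 55 lie right of the line, while 21 of the 27 cells of Control_Untreated lie left of it, mostly with cDC1 UMIs.

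To see which transcripts set the gated cells apart from the other myeloid cells of the same libraries, UMIs were summed per library and cell gate and tested with edgeR's quasi-likelihood test, with the library as a block and Benjamini-Hochberg adjustment over all genes tested. The 4 libraries are the replicates here and differ in genotype label and treatment, so the p-values measure the spread of the gap between cell types over these libraries. One comparison was with 107 C1q macrophages (at least 3 UMIs of C1qa, C1qb and C1qc, no Cd207), the other with 301 class II cells low in C1q and without Cd207, which hold other dendritic and monocyte-type cells. Against macrophages 119 of 1685 genes passed an adjusted p of 0.05 as higher in the gated cells (7.06%) and 176 as lower (10.4%). Against the C1q-low class II cells 98 of 3366 were higher (2.91%) and 215 lower (6.39%). The 13 genes used by any of the 3 gates were left out. Without Control_Untreated the counts were 57 higher and 93 lower against macrophages, and 31 and 73 against C1q-low cells. Leaving out Ovol1_null_Untreated gave 15 and 25 against C1q-low cells, and leaving out Control_IMQ gave 79 higher against macrophages; no call turned its direction in any of these fits.

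Langerhans identity genes rose in the gated cells. Of the 18 listed, 8 passed the low-count filter against macrophages and 5 of them rose (median log2 fold change 3.01, against -0.04 over all genes tested). Against C1q-low class II cells 12 passed the filter, 6 rose and 1 fell (median 1.55, against 0.01).

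Mfge8 stood at 39.1 UMIs per 10000 in gated cells of Ovol1_null_IMQ, 3.57 in Ovol1_null_Untreated, 6.71 in Control_IMQ and 2.02 in Control_Untreated, against 3.13, 0.169, 0.294 and 0.538 in macrophages and 4.33, 0.307, 1.36 and 0.486 in C1q-low cells of the same libraries. In every library the gated cells were higher than both. The log2 fold change of Mfge8 was 3.41 ± 0.41 (SE, adjusted p = 0.0025 in edgeR's quasi-likelihood test) against macrophages and 2.66 ± 0.27 (adjusted p = 0.0041) against C1q-low cells. Epcam had 7.69, 2.89, 3.58 and 1.70 UMIs per 10000 in gated cells of the 4 libraries in that order, against 0.783, 0.338, 0.587 and 0.202 in macrophages and 0.859, 0.553, 1.10 and 0.580 in C1q-low cells. It rose by 2.95 ± 0.26 (adjusted p = 0.0012) and 2.11 ± 0.29 (adjusted p = 0.0086) on the log2 scale in the same test. H2-M2, an MHC class I-like gene whose counts may share reads with near-identical family members, had 18.5, 4.26, 7.38 and 2.55 UMIs per 10000 in gated cells, and rose by 3.07 ± 0.30 against macrophages (adjusted p = 0.0013) and 1.59 ± 0.20 against C1q-low cells (adjusted p = 0.0076). H2-M5, a relative of it, had 59, 43, 9 and 21 UMIs in the gated cells, all of them marker-positive. Macrophages had none and all C1q-low cells 1, which makes H2-M5 at least 17.8-fold higher than in macrophages when 3 counts stand for none. Scaled to depth in marker-positive cells, H2-M5 was low in Ovol1_null_IMQ, at 0.867 per 10000. It stood at 10.3 in Ovol1_null_Untreated and 6.35 in Control_Untreated. The ratio of Ovol1_null_IMQ to Ovol1_null_Untreated was 0.084 (0.0558 to 0.128).

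Runx3, a transcription factor that Langerhans cells need in the mouse, rose by 1.74 ± 0.28 against C1q-low cells (adjusted p = 0.012 in edgeR's quasi-likelihood test), with 1.85, 1.31, 0.671 and 0.601 UMIs per 10000 in gated cells of Ovol1_null_IMQ, Ovol1_null_Untreated, Control_IMQ and Control_Untreated. Tgfbr2, a receptor subunit for TGF-beta, was the identity-list gene that fell, by 2.20 on the log2 scale (SE 0.46, adjusted p = 0.027); the gated cells had 18, 2, 1 and 16 UMIs of it in the same order. Cd24a, a surface glycoprotein, rose by 3.47 ± 0.50 (adjusted p = 0.0042) and 3.30 ± 0.37 (adjusted p = 0.0069). Cd24a was not a marker-positive trait: it stood at 3.44, 3.60, 0.835 and 0.908 UMIs per 10000 in marker-positive cells and at 3.73, 3.95, 2.41 and 2.92 in marker-negative ones. In the adhesion list Cldn1, a tight junction claudin, rose by 1.57 ± 0.30 (adjusted p = 0.021) and Itgb7, an integrin subunit, by 1.54 ± 0.33 (adjusted p = 0.030) against C1q-low cells, and with Epcam they made 3 of 10 tested genes. Itgb7 sat mainly in marker-negative cells, which held 6, 26, 7 and 51 of its UMIs, against 7, 0, 0 and 2 in marker-positive ones.

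Genes of lipid mediator synthesis were among the most raised. Of 14 listed, 7 passed the filter against C1q-low cells and 5 rose (median 2.86), while 2 of 4 rose against macrophages (median 1.84); none fell. Ltc4s, which joins glutathione to leukotriene A4, had 5.44, 2.82, 2.12 and 1.41 UMIs per 10000 in gated cells of the 4 libraries in the order Ovol1_null_IMQ, Ovol1_null_Untreated, Control_IMQ and Control_Untreated. It had 0, 0.169, 0 and 0.202 in macrophages and 0.261, 0.0819, 0.116 and 0.0187 in C1q-low cells, so the gates did not overlap. Its log2 fold change was 4.95 ± 0.73 (adjusted p = 0.0044 in edgeR's quasi-likelihood test) and 4.75 ± 0.34 (adjusted p = 0.0016). Hpgds, the haematopoietic prostaglandin D synthase, had 5.47, 3.16, 1.68 and 0.849 UMIs per 10000, against at most 0.391 in macrophages and 0.246 in C1q-low cells. It rose by 2.79 ± 0.40 (adjusted p = 0.0042) and 4.15 ± 0.40 (adjusted p = 0.0041). Ptgs1, the constitutive cyclooxygenase, rose by 2.86 ± 0.35 (adjusted p = 0.0076) and Alox5, the 5-lipoxygenase that starts leukotriene synthesis, by 2.99 ± 0.76 (adjusted p = 0.0495), both against C1q-low cells. Alox5ap, the protein that hands arachidonate to it, rose by 0.72 ± 0.18 there (adjusted p = 0.043) and was not confined to marker-positive cells. Hpgds, Ptgs1 and Alox5 were nearly absent from marker-negative cells, with at most 1 UMI of each in any library. Ltc4s also had at most 1 UMI there, but its UMIs were part of the split, so its low level is description.

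**Figure D2:**
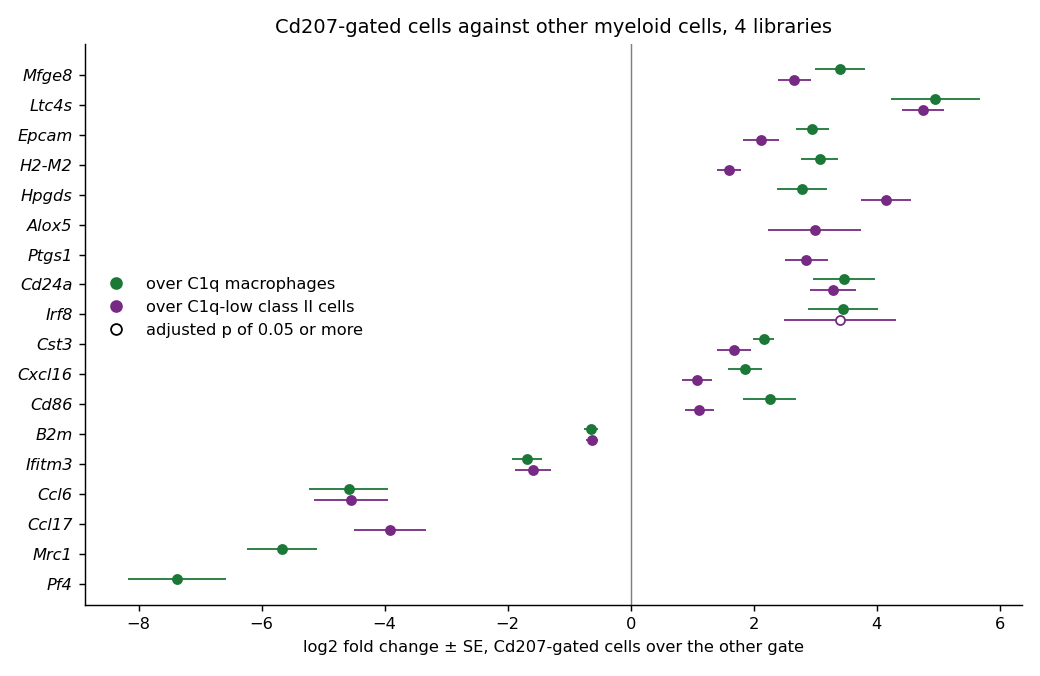
Log2 fold change (horizontal, ± SE) of named genes in Cd207-gated cells over C1q macrophages (green) and over C1q-low class II cells (purple), from UMIs summed in 4 libraries; an open point marks an adjusted p of 0.05 or more, and a missing point a gene not tested. Ltc4s lies near 4.95 and 4.75, and Irf8 is the only open point.

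Of the antigen-presentation genes outside the rule, the class II loading genes were higher than in macrophages. Of 13 listed class II genes, 7 outside the rule were tested against macrophages: 3 rose and 2 fell. H2-DMb1, a subunit of the peptide exchanger H2-DM, had 9.92, 12.6, 9.39 and 12.3 UMIs per 10000 in gated cells of Ovol1_null_IMQ, Ovol1_null_Untreated, Control_IMQ and Control_Untreated, against 1.24, 2.87, 1.84 and 2.82 in macrophages. It rose by 2.33 ± 0.22 (adjusted p = 0.0012 in edgeR's quasi-likelihood test), H2-DMb2 by 2.82 ± 0.44 (adjusted p = 0.0053) and H2-DMa by 1.71 ± 0.36 (adjusted p = 0.018). The macrophage gate had no class II condition, so the choice of cells can add to this gap. Against C1q-low cells, which met the same class II limit, H2-DMb1, H2-DMb2 and H2-DMa were not called. Their log2 fold changes there were 1.03, 0.91 and 0.93 (adjusted p = 0.077, 0.13 and 0.11 in the same test). Lgmn, an endolysosomal asparaginyl protease, fell in the gated cells by 3.34 on the log2 scale against macrophages (SE 0.31, adjusted p = 0.0012) and by 1.11 against C1q-low cells (SE 0.22, adjusted p = 0.025). Cst3, the cysteine protease inhibitor cystatin C, was nearly level across libraries at 167, 173, 162 and 165 UMIs per 10000. It rose by 2.16 ± 0.17 (adjusted p = 0.00078) and 1.68 ± 0.28 (adjusted p = 0.013). In the uptake and lysosome list 10 of 18 genes fell and 1, Cst3, rose in each comparison. Those that fell in both included the cathepsin genes Ctsl (by 2.59 and 2.03) and Ctsd (by 2.25 and 1.46) and the Fc receptor gene Fcgr3 (by 3.79 and 2.29).

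Cd86 rose, while most chemokine genes that were called fell. Cd86, a ligand for CD28 on T cells, rose by 2.26 ± 0.43 against macrophages (adjusted p = 0.011 in edgeR's quasi-likelihood test) and 1.11 ± 0.24 against C1q-low cells (adjusted p = 0.027). Cd83 rose against macrophages, by 1.85 ± 0.40 (adjusted p = 0.018), but was not called against C1q-low cells (0.20). Cd40 was not called there either (-0.97). Cd86 alone rose against C1q-low cells among the maturation genes listed. Others of that list fell there, among them Relb by 1.09, Birc3 by 1.18, Socs2 by 2.27 and Samsn1 by 2.23 (adjusted p = 0.043, 0.044, 0.040 and 0.021). Cxcl16, a membrane-bound chemokine, had 8.22, 2.54, 4.92 and 4.39 UMIs per 10000 in gated cells of Ovol1_null_IMQ, Ovol1_null_Untreated, Control_IMQ and Control_Untreated and rose by 1.86 ± 0.28 (adjusted p = 0.0049) and 1.08 ± 0.25 (adjusted p = 0.037). It was the 1 cytokine or chemokine that rose in each comparison, while 5 fell in each, of 9 tested against macrophages and 15 against C1q-low cells. Ccl9 and Ccl3, chemokines for myeloid cells, fell in both. Ccl9 had 0.772, 0.206, 1.45 and 0.318 UMIs per 10000 in gated cells, against 3.78, 2.87, 7.78 and 3.09 in macrophages and 2.13, 4.79, 5.51 and 4.65 in C1q-low cells. Ccl17, a chemokine for CCR4-bearing T cells, fell by 3.92 on the log2 scale against C1q-low cells (SE 0.59, adjusted p = 0.011), with 18, 0, 2 and 0 UMIs in gated cells. Il1b and Cxcl2 were not called in either comparison (Il1b 0.04 and -1.67, Cxcl2 -0.85 and -3.16 on the log2 scale).

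Interferon-stimulated genes that were called were lower in the gated cells, and class I genes were called in both directions. Of 36 listed interferon-stimulated genes, 9 were tested against macrophages and 5 fell (median -0.94), and 16 against C1q-low cells and 3 fell (median -0.53); none rose. Ifitm3, which blocks virus entry, fell by 1.69 and 1.59 on the log2 scale (SE 0.24 and 0.29, adjusted p = 0.0042 and 0.019 in edgeR's quasi-likelihood test). Of the class I list 3 of 13 tested genes rose and 2 fell against macrophages (median -0.04), and 1 of 14 rose and 2 fell against C1q-low cells (median 0.12). Psmb9 and Psmb8, subunits of the immunoproteasome, rose against macrophages, by 1.11 ± 0.22 and 0.93 ± 0.22 (adjusted p = 0.014 and 0.027). B2m, the light chain of MHC class I, fell by 0.64 and 0.63 (SE 0.11 and 0.10, adjusted p = 0.0079 and 0.012). B2m was lower in the gated cells of every library: 80.1, 22.4, 68.2 and 30.4 UMIs per 10000 in gated cells of Ovol1_null_IMQ, Ovol1_null_Untreated, Control_IMQ and Control_Untreated, against 100, 34.0, 112 and 49.4 in macrophages and 115, 38.4, 93.3 and 41.4 in C1q-low cells.

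Several markers of macrophages and type 2 dendritic cells were lower in the gated cells than in the gates set against them. All 4 tested macrophage markers outside the gates fell against macrophages. Macrophages were chosen by C1q, so this gap follows in part from the choice of cells. Against C1q-low cells Adgre1, a marker among the 4, was level and not called (-0.02 on the log2 scale). The scavenger receptor gene Mrc1 fell by 5.68 on the log2 scale (SE 0.57, adjusted p = 0.0014 in edgeR's quasi-likelihood test) and the platelet factor gene Pf4 by 7.38 (SE 0.79, adjusted p = 0.0016). Cd209f, a lectin of a family of close copies, had 0 UMIs in all gated cells and 197 in macrophages, at least 162-fold lower when 3 counts stand for none. Of the type 2 dendritic cell and monocyte markers Cd209a, Clec10a and Mgl2 fell against C1q-low cells, by 3.23, 3.12 and 3.00 on the log2 scale (adjusted p = 0.0082, 0.019 and 0.0086). Of the cDC1 list Irf8 and Naaa rose against macrophages, by 3.45 ± 0.57 (adjusted p = 0.0061) and 2.40 ± 0.53 (adjusted p = 0.021), and Cadm1 rose against C1q-low cells, by 1.80 ± 0.44 (adjusted p = 0.043). None of 10 keratinocyte markers was called, and all 6 fibroblast markers fell in both comparisons (medians -1.89 and -2.78).

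The lists of proliferation and sugar metabolism held fewer calls. Hmgb2, a chromatin protein of dividing cells, rose by 2.17 ± 0.25 (adjusted p = 0.0022 in edgeR's quasi-likelihood test) and 1.66 ± 0.16 (adjusted p = 0.0041), and 3 of 3 tested cell-cycle genes rose against macrophages and 3 of 7 against C1q-low cells. Birc5 and Ube2c, genes of mitosis, were carried by few cells: Ube2c had 47 UMIs in 2 cells of Ovol1_null_IMQ, 40 in 2 of Ovol1_null_Untreated, 3 in 1 of Control_IMQ and 23 in 3 of Control_Untreated. Pfkp, a phosphofructokinase, rose by 1.99 ± 0.31 (adjusted p = 0.0053) and 1.35 ± 0.25 (adjusted p = 0.019), and Ldha, lactate dehydrogenase, by 0.86 ± 0.19 (adjusted p = 0.019) and 0.80 ± 0.17 (adjusted p = 0.027). Among genes outside the lists, Rgs2, a regulator of G-protein signalling, rose by 3.13 ± 0.28 (adjusted p = 0.0012) and 3.14 ± 0.41 (adjusted p = 0.0082), with 23.6, 11.3, 9.28 and 8.67 UMIs per 10000. Lpar3, a receptor for lysophosphatidic acid, had 146, 13, 10 and 13 UMIs in gated cells against 3 in all C1q-low cells, and rose there by 5.63 ± 0.53 (adjusted p = 0.0041). P2rx2, an ATP-gated channel, had 30, 16, 7 and 12 UMIs against 1, and rose by 6.36 ± 0.61 (adjusted p = 0.0041); all of its gated UMIs came from marker-positive cells.

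Mfge8, Ltc4s and Epcam chose the marker-positive cells, so their levels there are set in part by that choice and are description. Epcam stood at 8.02, 8.88, 6.47 and 12.4 UMIs per 10000 in marker-positive cells of Ovol1_null_IMQ, Ovol1_null_Untreated, Control_IMQ and Control_Untreated, and Ltc4s at 5.70, 9.84, 3.76 and 11.8. H2-M2, not used for the split, stood at 19.2, 14.6, 13.4 and 21.5. Mfge8 was 41.0 in marker-positive cells of Ovol1_null_IMQ, against 12, 12.1 and 15.1 in the other libraries. Against Ovol1_null_Untreated that is a ratio of 3.42 (2.58 to 4.62), and against Control_IMQ one of 3.39 (2.61 to 4.47). The cell values overlapped, since Mfge8 in the 58 gated cells of Ovol1_null_IMQ ran from 0 to 133 with a median of 43.4. Cd207 itself, a gene of the rule, stood at 18.5, 25.4, 12.1 and 33.3. Csf1r, the receptor that keeps Langerhans cells alive, stood at 4.56, 5.52, 2.51 and 2.12 in marker-positive cells of the 4 libraries.

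**Figure D3:**
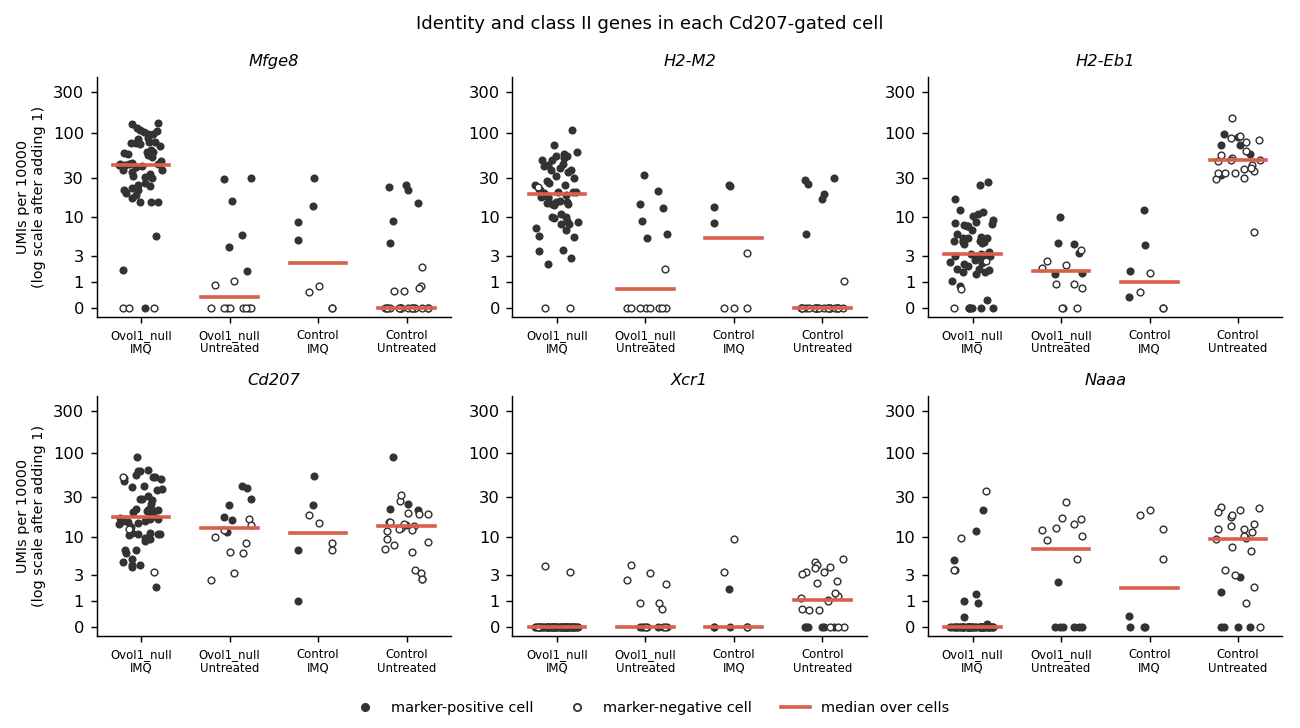
UMIs per 10000 (log scale after adding 1) of 6 genes in each Cd207-gated cell by library, filled for marker-positive and open for marker-negative cells, with a line at the median of all gated cells of the library. Mfge8, which is part of the split, and H2-M2 are carried by filled points, Xcr1 and Naaa mostly by open ones. H2-Eb1 is high in Control_Untreated in both kinds of cells, with 51.4 UMIs per 10000 there.

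In the library labelled Ovol1_null_IMQ, against Ovol1_null_Untreated, the gated cells carried more transcripts of interferon-stimulated, cytokine, maturation and sugar metabolism genes. Genes were read when they had at least 20 UMIs over both libraries. Of 4226 read, 811 were at least 2-fold higher (19.2%) and 354 at least 2-fold lower (8.38%), by the ratio of UMIs per 10000 with 0.5 UMI added to each sum. In marker-positive cells it was 867 of 3772 higher (23%) and 499 lower (13.2%). This comparison rests on 58 against 16 cells, and on 55 against 7 marker-positive ones.

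The interferon-stimulated list had 19 of its 36 genes read, with 14 at least 2-fold higher and none lower (median log2 ratio 2.39, against 0.17 over all genes). In marker-positive cells 13 of 18 were higher and none lower (median 2.01). Without the 3 cells over 25000 UMIs it was 13 of 17 and 2.30, where over all genes 610 of 3006 were higher (20.3%) and 318 lower (10.6%). Promoter stretches of 2 of these genes, Isg15 and Bst2, and of Cxcl2 from the cytokine list are shown because the lists they belong to lay far above the median of all genes. Capitals mark matches to the core of interferon-stimulated response elements (GAAA, NN, GAAA, where N is any base) in Isg15 and Bst2, and to the core of NF-kB sites (GGG, NN, TTTCC) in Cxcl2. The windows are from RefSeq on GRCm38.p6, written 5′ to 3′ on the gene's strand and overlapping matches run together.
Isg15, chr4:156200871-156200900, minus strand, 82 to 53 bases before the start: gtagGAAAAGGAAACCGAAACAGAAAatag
Bst2, chr8:71537580-71537609, minus strand, 137 to 108 bases before the start: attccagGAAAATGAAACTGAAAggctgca
Cxcl2, chr5:90903801-90903830, plus strand, 98 to 69 bases before the start: aGGGAATTTCCctggtccccGGGCTTTTCC
In the 250 bases before the start, on both strands, the interferon-type pattern was found in 12 of 32 promoter windows of the interferon-stimulated list (37.5%), 1 of 21 of the cytokine list and 978 of all 32851 windows (2.98%). The NF-kB type pattern was found in 5 of 21 windows of the cytokine list (23.8%), 0 of 32 of the interferon-stimulated list and 464 of all windows (1.41%). Neither pattern was found in the 13 windows of the identity list. A match is a run of letters and was not tested as a binding site.

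Isg15, a ubiquitin-like protein induced by interferon, had 112, 1, 13 and 2 UMIs in gated cells of Ovol1_null_IMQ, Ovol1_null_Untreated, Control_IMQ and Control_Untreated, or 1.57, 0.0687, 1.45 and 0.0707 per 10000. Both libraries with imiquimod were above both without it. Bst2, tetherin, had 199, 2, 38 and 32 UMIs, or 2.79, 0.137, 4.25 and 1.13 per 10000, and Irf7, the factor that amplifies interferon production, had 135, 1, 34 and 5 UMIs, or 1.89, 0.0687, 3.80 and 0.177 per 10000. For Irf7 the ratio of Ovol1_null_IMQ to Ovol1_null_Untreated was 27.6 (4.87 to 1097) and that of Control_IMQ to Control_Untreated 21.5 (8.36 to 70.4). Ifitm3 stood at 18.6, 0.618, 11.5 and 3.11 per 10000, and at 19.4, 0.480, 15.7 and 2.12 in marker-positive cells. Much of Ifitm3 lay in a few large cells: without cells over 25000 UMIs it stood at 10.5 in Ovol1_null_IMQ and 5.98 in Control_IMQ, and at 11.1 and 4.29 in marker-positive cells. Isg15 in marker-positive cells had 109, 1, 5 and 0 UMIs, Bst2 192, 0, 24 and 2, and Irf7 122, 0, 7 and 0. Isg15 and Ifitm3 were also higher with imiquimod in fibroblasts, Isg15 at 3.81, 0.198, 1.43 and 0.211 and Ifitm3 at 93.2, 17, 52.3 and 16.8 per 10000, and Ifitm3 in C1q-low class II cells, at 32.6, 5.08, 27.9 and 8.86. The part of RNA from outside the gated cells in these values was not tested. At least 1 UMI of Isg15, Irf7, Bst2, Rtp4 or Oasl2 was seen in 54 of 58 cells of Ovol1_null_IMQ, 4 of 16 of Ovol1_null_Untreated, 6 of 8 of Control_IMQ and 14 of 27 of Control_Untreated. Tlr7, the receptor that imiquimod engages, had 0 UMIs in the gated cells of all 4 libraries, which allows up to 0.0421 per 10000 in Ovol1_null_IMQ and 0.206 in Ovol1_null_Untreated.

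Some MHC class I genes were higher with imiquimod. In 14 class I genes read, 5 were at least 2-fold higher between Ovol1_null_IMQ and Ovol1_null_Untreated and none lower (median 0.35; 6 of 14 and 0.95 in marker-positive cells), and 6 of 14 between Control_IMQ and Control_Untreated (median 0.51). With TMM scaling the last count was 3 of 14 (median 0.24, against -0.20 over all genes). B2m in single cells ran from 47.6 to 167 UMIs per 10000 with a median of 81.4 in Ovol1_null_IMQ, and from 4.98 to 56.9 with a median of 23.6 in Ovol1_null_Untreated. It ran from 37.1 to 114 (median 63.1) in Control_IMQ and from 11.2 to 103 (median 26.0) in Control_Untreated. The 2 libraries with imiquimod lay above their untreated partners in the median, with overlap between single cells. In marker-positive cells the sums of B2m were 80.8, 37.2, 65.6 and 33.9 per 10000, ratios of 2.17 (1.85 to 2.56) and 1.93 (1.55 to 2.42). Without the cell over 25000 UMIs in Control_IMQ the second ratio was 1.38 (1.03 to 1.84), and 0 of 6 class I genes read in marker-positive cells of the control libraries were 2-fold apart. H2-K1, a classical class I heavy chain, stood at 17, 6.73, 19.9 and 8.56 per 10000, and at 17.5, 9.36, 21.5 and 9.38 in marker-positive cells. B2m differed in the same way in fibroblasts, with 157, 40.7, 144 and 36.7 per 10000.

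Cytokine and chemokine genes were high in the gated cells of Ovol1_null_IMQ. Of 27 listed, 15 were read against Ovol1_null_Untreated, and 13 were at least 2-fold higher and none lower (median 3.21); in marker-positive cells it was 11 of 15 (median 1.58). Il1b, a cytokine of acute inflammation, had 1246, 27, 9 and 231 UMIs in Ovol1_null_IMQ, Ovol1_null_Untreated, Control_IMQ and Control_Untreated, or 17.5, 1.85, 1.01 and 8.17 per 10000. It was seen in 44 of 58, 3 of 16, 5 of 8 and 10 of 27 cells, and in 7.84%, 3.16%, 3.05% and 0.346% of keratinocytes, a cell type low in Il1b, at median depths of 15105, 5205.5, 5864 and 5294 UMIs. In marker-positive cells Il1b stood at 17.3, 6.48, 0.626 and 3.93 per 10000, a ratio of 2.67 (1.83 to 4.07) for Ovol1_null_IMQ over Ovol1_null_Untreated. That ratio leans on 1 cell of Ovol1_null_Untreated, which held 21 of the 27 UMIs. This cell had no Mfge8 UMI and 11 of Mgl2, a type 2 dendritic cell marker. In Control_Untreated 139 of the 231 UMIs lay in 1 marker-negative cell and 65 in another.

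Cxcl2, which draws neutrophils, had 1098, 3, 4 and 35 UMIs in the gated cells of the 4 libraries in that order, or 15.4, 0.206, 0.447 and 1.24 per 10000. Its ratio between Ovol1_null_IMQ and Ovol1_null_Untreated was 74.8 (25.5 to 363), and 56.5 (10.1 to 2233) in marker-positive cells. The Cxcl2 UMIs were spread unevenly, since 35 of the 58 cells had any, the median cell stood at 1.55 per 10000 and the highest at 317. In the C1q-low class II cells Cxcl2 stood at 20.2, 23.4, 6.90 and 11.2, so the same step between the libraries labelled null was not seen there. Il1b or Cxcl2 was found in 49 of 58 gated cells of Ovol1_null_IMQ, 5 of 16 of Ovol1_null_Untreated, 5 of 8 of Control_IMQ and 10 of 27 of Control_Untreated. Of the cytokines tied to type 17 inflammation, Il23a and Il6 each had 3 UMIs in Ovol1_null_IMQ and 0 in the other libraries, and Il1a had 0 in all. Tnf stood at 1.07, 0.618, 0.447 and 0.601 per 10000, with no gap between libraries beyond the counting intervals of Ovol1_null_IMQ (0.840 to 1.33) and Ovol1_null_Untreated (0.283 to 1.17).

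Il1r2, the decoy receptor that takes up interleukin-1 without signalling, was high with imiquimod in both genotype labels. It stood at 11, 0.618, 6.04 and 1.17 UMIs per 10000 in gated cells of Ovol1_null_IMQ, Ovol1_null_Untreated, Control_IMQ and Control_Untreated, ratios of 17.9 (9.36 to 39.2) and 5.17 (3.29 to 8.24). In marker-positive cells Il1r2 was 11.5, 1.92, 9.19 and 4.54, ratios of 5.97 (3.02 to 13.9) and 2.02 (1.10 to 3.92). Cd63, a tetraspanin of late endosomes, stood at 14, 1.58, 5.70 and 4.10, and at 14.6, 3.36, 9.39 and 8.77 in marker-positive cells. Clec4n, the lectin dectin-2, had 295, 14, 2 and 3 UMIs in all gated cells, and stood at 4.29, 3.36, 0 and 0.908 per 10000 in marker-positive cells. Cfp, the complement regulator properdin, had 170, 2, 0 and 12 UMIs, and was seen in 45 of the 58 cells of Ovol1_null_IMQ. Pgf, placental growth factor, had 287, 0, 1 and 0 UMIs and was seen in 33 of the 58 cells; in macrophages and C1q-low cells Pgf did not exceed 1.17 per 10000 in any library, and 1.36% of keratinocytes of Ovol1_null_IMQ had a UMI.

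**Figure D4:**
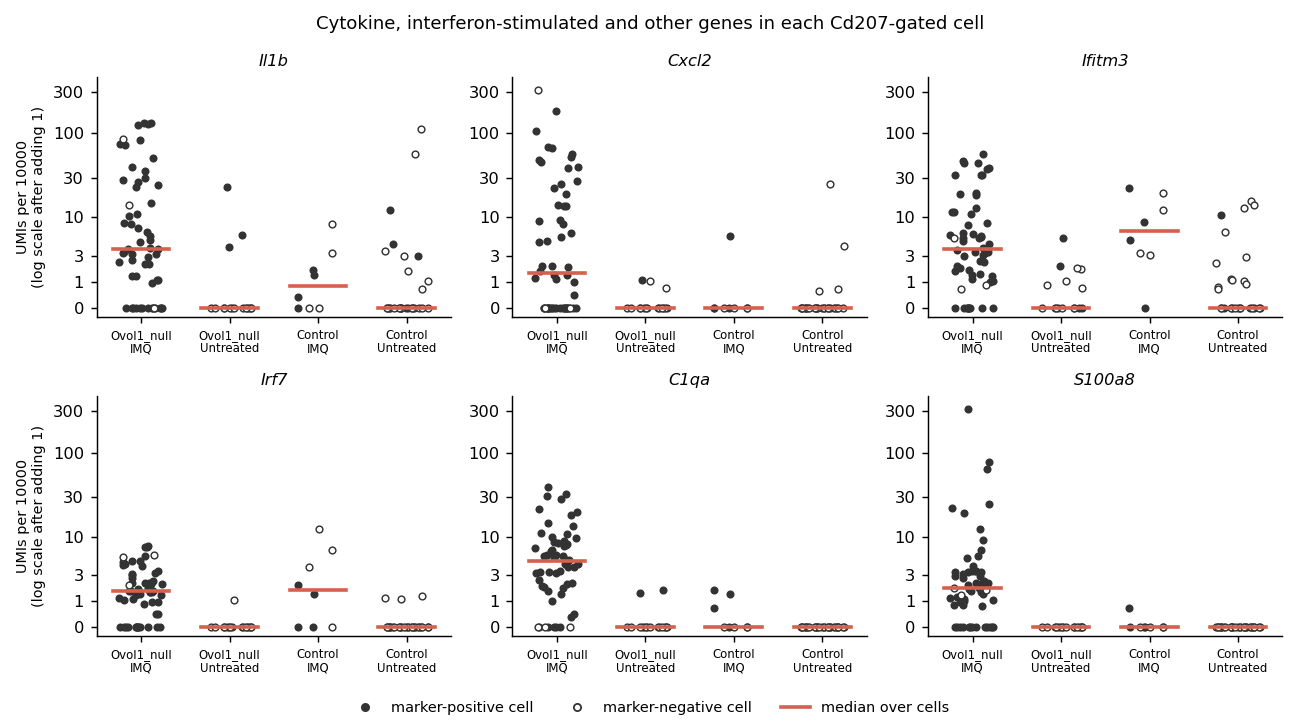
UMIs per 10000 (log scale after adding 1) of Il1b, Cxcl2, Ifitm3, Irf7, C1qa and S100a8 in each Cd207-gated cell by library, filled for marker-positive and open for marker-negative cells, with a line at the median of the library. Irf7 and Ifitm3 have medians above 0 in both libraries with imiquimod, while C1qa, seen in 50 of 58 cells, and S100a8 have a median above 0 in Ovol1_null_IMQ and at 0 in the other 3.

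Maturation genes were raised in a subset of cells. Of 20 listed, 15 were read between Ovol1_null_IMQ and Ovol1_null_Untreated, with 11 at least 2-fold higher and none lower (median 3.54). In marker-positive cells 9 of 15 were higher and 1 lower (median 1.80). Ccr7, the receptor that leads dendritic cells into lymph vessels, had 210, 0, 29 and 4 UMIs in Ovol1_null_IMQ, Ovol1_null_Untreated, Control_IMQ and Control_Untreated. The 210 came from 16 of 58 cells, and the 29 and the 4 from 1 cell each, that of Control_IMQ being its largest with 29266 UMIs. Cd40, the receptor for T cell help, had 67, 0, 3 and 1 UMIs and was not limited to Ccr7-bearing cells in Ovol1_null_IMQ, with 31 UMIs in 16 cells with Ccr7 and 36 in 42 without.

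The 16 cells of Ovol1_null_IMQ with a Ccr7 UMI also carried some other transcripts of migrating dendritic cells. Since Ccr7 chose them, these values are description, and they are medians over cells, because the 16 include the cell of 120532 UMIs. Median UMIs were 10652 in cells with Ccr7 and 8918.5 in the 42 without. Fscn1, the actin bundler fascin, had a median of 2.49 per 10000 in cells with Ccr7, against 0 in those without; Ccl22 had 3.17 against 0, and Cacnb3, a calcium channel subunit, 3.25 against 0. Ccl5, summed over cells, had 346 UMIs in cells with Ccr7 and 0 in those without. Those UMIs lay in 9 of the 16 cells, with 101, 100, 90 and 47 in 1 cell each, and the median was 0.533 per 10000. The costimulation genes Cd86 and Cd83 did not follow Fscn1, Ccl22 and Cacnb3: Cd86 had 3.15 with Ccr7 against 5.05 without, and Cd83 5.78 against 5.50. Medians of several epidermal genes were lower in cells with Ccr7: Cd207 at 11 against 20.5, Ltc4s at 4.29 against 9.27, Epcam at 3.66 against 10.6, Csf1r at 2.18 against 6.73 and Il1r2 at 6.41 against 16.8. Mfge8 had medians of 45.0 with Ccr7 and 43.2 without, and summed over cells, the largest included, 31.3 and 44.5 per 10000. Of the 16, 4 had a single Ccr7 UMI and 11 had at least 3.

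Genes of glycolysis were higher in Ovol1_null_IMQ than in Ovol1_null_Untreated, with 10 of 15 at least 2-fold higher and none lower (median 1.38), and 8 higher and 1 lower in marker-positive cells (median 1.06). Without cells over 25000 UMIs it was 5 of 12 (median 0.93). Gapdh stood at 17.2, 7.49, 7.83 and 8.53 UMIs per 10000 in Ovol1_null_IMQ, Ovol1_null_Untreated, Control_IMQ and Control_Untreated, and at 17.4, 5.04, 6.68 and 6.05 in marker-positive cells. Ldha stood at 8.36, 4.60, 4.36 and 4.32. Between Control_IMQ and Control_Untreated 0 of 10 glycolysis genes read were at least 2-fold apart, and 1 of 5 in marker-positive cells, which was lower.

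C1qa, a chain of complement C1q, was found in 50 of 58 gated cells of Ovol1_null_IMQ. It had 407, 2, 4 and 0 UMIs in Ovol1_null_IMQ, Ovol1_null_Untreated, Control_IMQ and Control_Untreated, or 5.71, 0.137, 0.447 and 0 per 10000, all 407 in marker-positive cells. C1q-low class II cells, a type low in C1q by their own gate, had at most 0.0747 per 10000, and macrophages 19.3 to 35.0. C1qa came without the other chains in 28 of the 50 cells, and without C1qb in 38. Over the 58 cells there were 29.0 C1qb UMIs per 100 of C1qa. Of the C1qb UMIs 112 lay in the 6 cells with at least 3 of them. Other macrophage transcripts (Pf4, Mrc1, Folr2, Cd163, F13a1 and Lyve1) had 40 UMIs in 7 cells.

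Transcripts of keratinocytes, neutrophils and fibroblasts moved with the library in the gated cells. S100a8, a calprotectin subunit, had 1568, 0, 2 and 0 UMIs in gated cells of Ovol1_null_IMQ, Ovol1_null_Untreated, Control_IMQ and Control_Untreated, and stood in keratinocytes of the same libraries at 104, 0.0119, 1.37 and 0.0412 per 10000. The largest cell of Ovol1_null_IMQ held 49.2% of its S100a8 UMIs, 62.9% of Krt14 and 58.1% of Lgals7; without the 3 cells over 25000 UMIs S100a8 stood at 7.35 per 10000 and Krt14 at 2.42, against 22 and 52.9 with them. Saa3, an acute-phase protein, had 336, 0, 5 and 0 UMIs, and stood in fibroblasts at 191, 0.977, 17.7 and 0.122 per 10000. The 10 keratinocyte markers, all detected in each library, summed to 134, 71.8, 146 and 21.0 per 10000, with cell medians of 12.4, 26.7, 40.7 and 5.84. The 6 fibroblast markers summed to 10.5, 31.9, 56.8 and 111. The 6 neutrophil markers summed to 37.1, 0, 0.447 and 0, with 1 of 6 at 0 in Ovol1_null_IMQ and all 6 in both untreated libraries. The 10 macrophage markers summed to 10.2, 1.03, 1.12 and 0.814, with 2, 7, 6 and 5 of them at 0, and the 7 T cell markers in the table to 2.20, 0.550, 0.335 and 0.849. Mast cell markers were at 0 in all 4 libraries, and B cell markers had 5 UMIs in Ovol1_null_IMQ and 0 elsewhere. The part of these transcripts in the differences between libraries was not tested.

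Lower in Ovol1_null_IMQ were genes that marker-negative cells carry. Tmsb10, an actin-binding peptide, stood at 3.40, 52.3, 22 and 35.1 UMIs per 10000 in Ovol1_null_IMQ, Ovol1_null_Untreated, Control_IMQ and Control_Untreated, a ratio of 0.065 (0.056 to 0.0752) for Ovol1_null_IMQ over Ovol1_null_Untreated. In marker-positive cells Tmsb10 stood at 2.82, 2.40, 6.26 and 1.51, without that gap. Mpeg1, the pore-forming perforin-2, stood at 0.267, 5.22, 1.57 and 4.14, and at most at 0.303 in marker-positive cells. The cDC1 list had 5 of 6 genes at least 2-fold lower (median -2.53), against 2 of 3 higher and none lower in marker-positive cells (median 1.42). The identity list had a median of 0.63 in all gated cells and -0.21 in marker-positive ones, and the lipid mediator list 0.86 and -0.82.

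In the library labelled Control_IMQ, against Control_Untreated, fewer genes could be read, since it held 8 gated cells. Of 2113 read, 225 were at least 2-fold higher (10.6%) and 185 lower (8.76%); in marker-positive cells, 4 against 6, it was 88 of 563 higher (15.6%) and 61 lower (10.8%). With TMM scaling the share of higher genes among those past the fold was 32.4%, against 54.9% by totals, and the median over all genes moved to -0.20 from 0.08. Interferon-stimulated genes stood out in the same direction as in the libraries labelled null: 5 of 7 were at least 2-fold higher and none lower (median 1.89), and 3 of 4 in marker-positive cells (median 2.78). Leaving out the cell of 29266 UMIs, 5 of 7 were still higher in all gated cells (median 1.16), but none could be read in marker-positive cells, 3 against 6, so there the direction rests on 1 cell. Ifi27l2a, an interferon-induced membrane protein, stood at 12.3 UMIs per 10000 in Control_IMQ and 1.06 in Control_Untreated, a ratio of 11.6 (7.68 to 18.0), and at 6.52 in Ovol1_null_IMQ and 1.24 in Ovol1_null_Untreated. In marker-positive cells Ifi27l2a had 25 UMIs in Control_IMQ and 0 in Control_Untreated, and 449 in Ovol1_null_IMQ and 0 in Ovol1_null_Untreated. Cytokine genes did not share a direction, with 4 of 12 higher and 3 lower. Keratinocyte markers were higher in 8 of 10 and lower in none (median 2.69), led by Krt1 with 9.95 per 10000 in Control_IMQ and 0.212 in Control_Untreated. The cell of 29266 UMIs held 84 of the 89 Krt1 UMIs of Control_IMQ, and without it 4 of 9 keratinocyte markers were higher (median 0.79). Without the cell over 25000 UMIs, marker-positive cells of Control_IMQ had 3 keratinocyte markers read, 1 of them lower and none higher, where over all genes 31 of 371 were higher (8.36%) and 28 lower (7.55%).

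Between the 2 libraries with imiquimod, Ovol1_null_IMQ over Control_IMQ, 611 of 4061 genes were at least 2-fold higher (15.0%) and 408 lower (10.0%). In marker-positive cells, 55 against 4, it was 754 of 3818 higher (19.7%) and 489 lower (12.8%). TMM scaling made 80.7% of those past the fold higher, against 60.0% by totals, and moved the median over all genes to 0.37 from 0.06. This comparison shares its libraries with those above. Of the cytokine genes 7 of 16 were at least 2-fold higher and none lower (median 0.62), and 11 of 16 in marker-positive cells (median 2.29). Of the identity genes 7 of 15 were higher and none lower (median 0.67), and in marker-positive cells 2 higher and 1 lower (median 0.51). For Il1b the ratio was 17.4 (9.12 to 38.1), and 27.6 (9.43 to 134) in marker-positive cells. For Cxcl2 it was 34.4 (13.4 to 127), and 16.2 (6.32 to 59.7). Il18, an interleukin-1 relative, had 161, 9, 2 and 19 UMIs in Ovol1_null_IMQ, Ovol1_null_Untreated, Control_IMQ and Control_Untreated, and 161, 4, 2 and 7 in marker-positive cells. Interferon-stimulated genes had 1 of 21 higher and 3 lower in all gated cells (median -0.51, and 0.15 in marker-positive cells), and class I genes 2 higher and 2 lower of 14, so neither list was set apart from the background. Some lists moved when cells over 25000 UMIs, 3 of Ovol1_null_IMQ and 1 of Control_IMQ, were left out together. In marker-positive cells 515 of 2903 genes were then higher (17.7%) and 514 lower, with a median of -0.20. The interferon-stimulated list had 9 of 17 higher and 1 lower (median 1.05), the maturation list 10 of 15 and 1 (median 1.68) and the cytokine list 11 of 15 and 1 (median 1.53). The identity, lipid mediator and adhesion lists had medians of -0.12, -0.19 and -0.20, against 0.51, 0.68 and 0.29 with those cells. Il7r, a cytokine receptor chain, had 103 UMIs in 42 of 58 cells of Ovol1_null_IMQ and 0 in Control_IMQ, at least 4.31-fold higher with 3 counts for none.

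Between the untreated libraries, Ovol1_null_Untreated over Control_Untreated, 128 of 2350 genes were at least 2-fold higher (5.45%) and 183 lower (7.79%), and 25 (5.07%) and 24 (4.87%) of 493 in marker-positive cells, 7 against 6. Under TMM scaling 29.8% of those past the fold were higher, against 41.2% by totals. Krt1, a keratin of the upper epidermis, led the higher genes with 90 UMIs in Ovol1_null_Untreated and 6 in Control_Untreated, a ratio of 29.1 (12.9 to 81.5). The lowest ratio among named genes was that of H2-Eb1, the beta chain of the class II molecule I-E, with 29 UMIs in Ovol1_null_Untreated and 1454 in Control_Untreated, or 1.99 and 51.4 per 10000, a ratio of 0.0387 (0.0258 to 0.0559). In Control_IMQ and Ovol1_null_IMQ it stood at 1.68 and 3.86. Every gated cell of Control_Untreated had H2-Eb1, from 6.47 to 153 per 10000 with a median of 49.5, and the highest cell of the other 3 libraries stood at 27.2. Marker-positive cells gave 3.98, 3.84, 2.51 and 69.3 in Ovol1_null_IMQ, Ovol1_null_Untreated, Control_IMQ and Control_Untreated. The same library stood apart in the other class II gates, with H2-Eb1 at 0.391, 2.03, 0.367 and 21.4 in macrophages and 1.53, 1.04, 6.15 and 34.3 in C1q-low cells. The H2 haplotypes of the animals are not given in the sources used here, so a difference at this locus and one in its expression cannot be told apart. Over all gated cells H2-DMa, another class II gene, did not follow it, at 13.8, 14.7, 9.51 and 14.3. Of 11 listed class II genes read between the untreated libraries, those of the rule included, 2 were higher and 1 lower (median 0.04). In marker-positive cells H2-DMa stood at 7.72 in Control_IMQ and 28.4 in Control_Untreated, and H2-DMb1 at 5.43 and 19.1. Those of Control_IMQ included the cell of 29266 UMIs. Cytokine genes were lower in Ovol1_null_Untreated in 5 of 9 and higher in none (median -2.12), while only 2 could be read in marker-positive cells, 1 of them lower. Keratinocyte markers were higher in 6 of 10 (median 1.81), and in 0 of 3 in marker-positive cells.

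**Figure D5:**
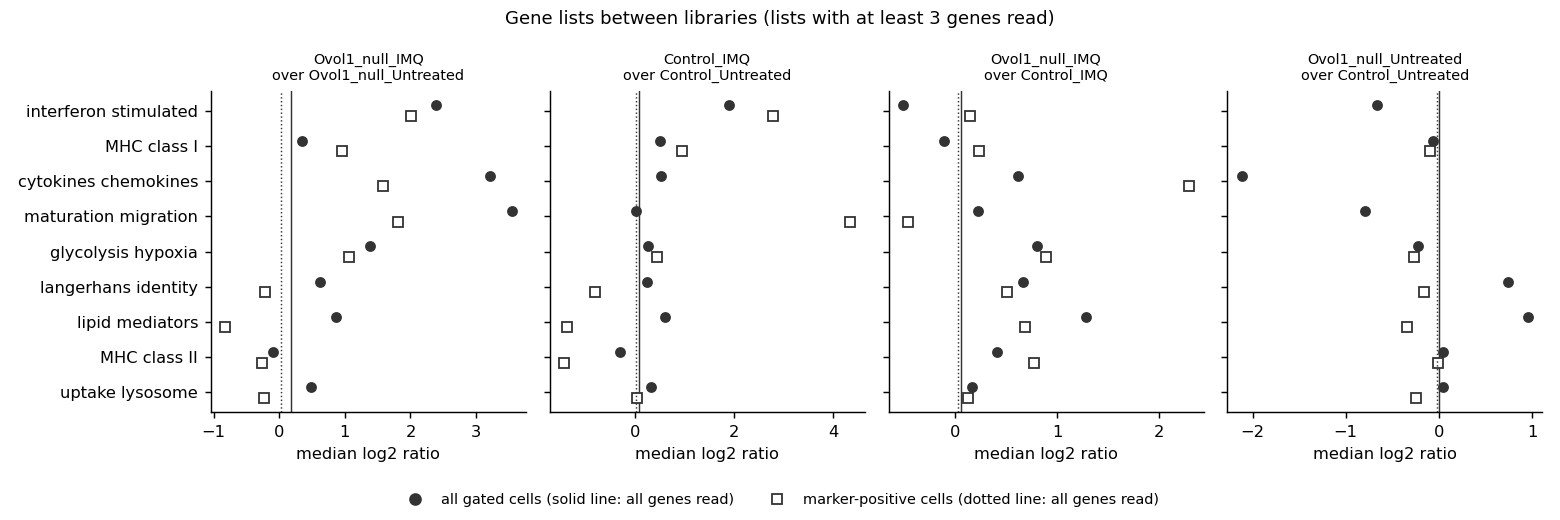
Median log2 ratio of gene lists in 4 comparisons between libraries, one panel each with its own axis, for all Cd207-gated cells (filled circles) and marker-positive cells (open squares), with lines at the median of all genes read (solid for all gated, dotted for marker-positive cells). The interferon-stimulated list lies right of the lines in both comparisons of imiquimod with untreated, at 2.39 and 1.89 in all gated cells, and the identity list changes side of them between the 2 sets of cells in the first.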

How the data were processed

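Single cells were captured with Chromium 3′ chemistry (v2) and sequenced on an Illumina HiSeq instrument, aiming at 10000 cells and 50000 reads per cell in each library, per the labels' protocols. The deposited matrix holds UMI counts of 27998 genes in 23455 barcodes of 4 libraries, which the authors made with Cell Ranger 2.1.0 and mm10, per the submitters' processing notes. Whether depth was equalised when the libraries were joined is not given there. Totals per library ranged from 30495767 to 56973042 UMIs over kept cells, and 89425 to 712655 UMIs over the gated cells, so low genes have wide intervals and a gene at 0 is taken as at most 3 counts.

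Levels are summed UMIs per 10000, with exact Poisson intervals, and shares have exact Clopper-Pearson intervals, all at 95%. The gated cells were tested against C1q macrophages and C1q-low class II cells on sums per library with edgeR 4.0.16 in R 4.3.3 (TMM, quasi-likelihood, library as block, Benjamini-Hochberg over all genes; 8 sums a test), with DESeq2 1.42.0 as an alternative. The 13 gate genes were left out. The gates for these cells take at least 1 UMI of Tyrobp or Fcer1g and no Cd79a UMI for the C1q-low cells. Between libraries, with 1 per group, ratios of UMIs per 10000 were given without a test, with exact binomial intervals, for genes with at least 20 UMIs over both libraries. Doublets were marked with Scrublet (scanpy 1.11.5; Python 3.11.15, scipy 1.17.1) and left in. Cells were thinned to 1400 UMIs for shares. Scripts were tested on simulated data.

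Genes were named by rule: the markers and the list members with most UMIs or a call; the 10 largest folds each way per test with an adjusted p under 0.05 and 1 direction in all 4 libraries; and the 8 largest ratios each way per comparison of libraries with at least 50 UMIs and a UMI in 50% or more of the cells of the higher library. Values of other genes were added where a result turned on them. The cells and the 27 gene lists were chosen with earlier results of these data known; the split by Mfge8, Ltc4s and Epcam and the limit of 25000 UMIs were chosen after seeing the values. Alternatives were other Cd207, class II and cell limits, scalings, count filters, no block, each library left out, thinning and equal weight per cell. Nothing was tested over replicate animals.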

Additional observations from a re-analysis of the deposited data

Results flagged for a closer look

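Of the genes read in both comparisons of imiquimod with untreated skin, 4 named ones were at least 2-fold apart in opposite directions under the labels Ovol1 null and control. Il1b had a log2 ratio of 3.21 for Ovol1_null_IMQ over Ovol1_null_Untreated and -2.95 for Control_IMQ over Control_Untreated. Krt1 had -3.60 and 5.44, Krt10 -3.41 and 4.75, and Krt15 -4.23 and 2.35 in the same comparisons. Of the Control_IMQ UMIs, 1 cell of 29266 UMIs held 84 of 89 for Krt1, 181 of 199 for Krt10 and 182 of 215 for Krt15; without it Krt1 stood at 0.831, Krt10 at 2.99 and Krt15 at 5.49 per 10000 in Control_IMQ, against 0.212, 0.814 and 4.70 in Control_Untreated. The difference between the comparisons was not tested, since each group had 1 library. The Il1b UMIs of Control_Untreated came from 10 of 27 cells, with the highest cell at 113 per 10000. Most of them lay in marker-negative cells, 139 in 1 cell and 65 in another, so this direction rests mainly on those cells. Of Krt1, marker-positive cells held 0.50, 0.960, 18.2 and 0.303 UMIs per 10000 in Ovol1_null_IMQ, Ovol1_null_Untreated, Control_IMQ and Control_Untreated, and keratinocytes 16.4, 5.77, 4.48 and 3.58.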

How the results depend on the processing

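The number of gated cells in Ovol1_null_IMQ was 75 with 1 Cd207 UMI as the limit, and that library held the most gated cells under every gate tried. Without the low-count filter 382 genes were higher and 332 lower against C1q macrophages, and 233 and 590 against C1q-low class II cells. Without the library block 91 were lower against macrophages, and 37 were higher and 49 lower against C1q-low cells. Without cells over 25000 UMIs 173 were higher against C1q-low cells. Leaving out each library in turn gave 57 to 132 higher and 93 to 186 lower against macrophages, and 15 to 144 higher and 25 to 250 lower against C1q-low cells; no gene called with all libraries turned its direction. No paired analysis was possible because each group had 1 library; this concerns comparisons between groups, and the tests between cell types were paired by library.

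Genes at least 2-fold apart numbered 511, 122, 381 and 83 with 50 UMIs as the limit, 3289, 2196, 3201 and 1613 with 5, and 212, 64, 164 and 49 after thinning, in Ovol1_null_IMQ over Ovol1_null_Untreated, Control_IMQ over Control_Untreated, Ovol1_null_IMQ over Control_IMQ and Ovol1_null_Untreated over Control_Untreated. Marker-positive cells, an alternative chosen after seeing the data, gave 149 in the second and 49 in the last, and those up to 25000 UMIs 59 and 49. After thinning, 43.8% of gated cells of Ovol1_null_Untreated and 22.2% of Control_Untreated had a UMI of Mfge8, Ltc4s or Epcam.

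Log2 ratios that turned sign in marker-positive cells, with those up to 25000 UMIs second where they turned too, were the following. For Ovol1_null_IMQ over Ovol1_null_Untreated they were Epcam -0.164, Csf1r -0.306, Naaa 0.469 and 0.910, Irf8 1.416 and 1.831, and Tmsb10 0.167 and 0.054. For Control_IMQ over Control_Untreated they were Mfge8 -0.323, Epcam -0.933, H2-M2 -0.684 and -0.029, and H2-D1 -0.091 in the smaller cells alone. For Ovol1_null_IMQ over Control_IMQ they were Naaa 1.407 and 2.071, Lyz2 2.679 and 1.280, Irf7 0.201 and 1.479 (1.049 after thinning), and, in the smaller cells alone, H2-Eb1 -0.235, Hpgds -0.026, Ltc4s -0.185, Epcam -0.420, Csf1r -0.115 and Tmsb10 3.285. For Ovol1_null_Untreated over Control_Untreated Il1b was 0.692 in both, and 1.001 with at least 5 Cd207 UMIs. In Ovol1_null_Untreated 21 Il1b UMIs lay in 1 cell, and 4 and 2 in 1 cell each. These alternatives change which cells are counted. Single libraries per group and 8 to 58 cells limit every comparison between libraries.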

Other observations

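Transcription factor genes of macrophages and monocytes were low in the gated cells. In the list of 19 factors, 11 were tested against C1q macrophages, with 1 higher and 4 lower, and 16 against C1q-low class II cells, with 1 higher and 5 lower. Zeb2, which holds macrophage identity in several tissues, had 0.491, 0.275, 0.559 and 0.424 UMIs per 10000 in gated cells of Ovol1_null_IMQ, Ovol1_null_Untreated, Control_IMQ and Control_Untreated, against 2.28, 1.69, 2.35 and 2.76 in macrophages and 1.05, 1.94, 2.03 and 1.88 in C1q-low cells. The gated cells were the lowest in every library. Zeb2 fell by 2.44 on the log2 scale against macrophages (SE 0.25, adjusted p = 0.0014 in edgeR's quasi-likelihood test) and by 1.95 against C1q-low cells (SE 0.30, adjusted p = 0.012). Maf, a factor of resident macrophages, fell by 3.76 on the log2 scale against macrophages (adjusted p = 0.0030 in the same test).

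Immediate-early genes, which respond within minutes to stimuli such as tissue dissociation, were also lower. Of 19 listed immediate-early and heat shock genes, all were tested, and 5 fell and 1 rose against macrophages (median -0.37), while 6 fell and none rose against C1q-low cells (median -0.41). Against macrophages and C1q-low cells in that order, Dusp1 fell by 1.80 and fell by 1.25 (adjusted p = 0.0034 and 0.017), Fos fell by 1.22 and fell by 0.78 (adjusted p = 0.0042 and 0.027) and Egr1 fell by 1.99 and fell by 1.24 (adjusted p = 0.0053 and 0.021), all in edgeR's quasi-likelihood test. Hspa8 was the 1 that rose, by 0.57 ± 0.13 (adjusted p = 0.026).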
